A study of Homo sapiens with 26 samples.

Results

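The genes described here are a module of 38 listed genes that the transcription factor ATF4 is known for when cells run short of amino acids or meet other stress. Each listed gene was looked up in the expression table, and 37 of the 38 were measured among 19775 genes in all; GPT2 was not analysed here. Where a gene had several probe sets (the groups of short probes that report a transcript), the brightest by mean log2 intensity over all 26 arrays stood for it. The 37 genes comprise 8 transcription factors, 7 feedback and stress regulators, 10 enzymes of amino acid and folate metabolism, 8 amino acid transporters, and 4 others (the secreted proteins STC2 and ADM2, the lipoprotein receptor VLDLR and the tRNA exporter XPOT).

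The module belongs to the integrated stress response. Stress-sensing kinases phosphorylate the translation factor eIF2; this slows protein synthesis in general and raises translation of the ATF4 mRNA, so that ATF4 protein can rise with little change in its transcript. ATF4 binds DNA together with partners such as CEBPG and switches on genes that make, import and save amino acids, while members such as TRIB3 and PPP1R15A feed back on the response. In cancer cells the same genes supply serine, glycine, cysteine, asparagine and essential amino acids for growth.

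All arrays came from MDA-MB-468 cells, a long-established line from a human breast tumour that lacks hormone receptors and has basal features, and the study compared agents that block or activate the receptor NOTCH3. In the antagonism experiment cells were plated at 2500000 a dish, grown for 40 h and treated for 24 h. They received 10 µg/ml of a control antibody (anti-gD IgG) with 0.05% DMSO (3 arrays), the same antibody with 5 µM DAPT (3 arrays), or 10 µg/ml of anti-N3.A4 with 0.05% DMSO (2 arrays). DAPT is a gamma-secretase inhibitor, which stops the cleavage that releases the active part of Notch receptors. In the agonism experiment cells were plated at 6250000 a dish (both numbers with the labels' exponent read in the usual way), and all dishes except the DMSO dish (0.05%) spent 16 h in 5 µM DAPT to hold Notch signalling down. Every dish was then washed and left in plain medium for 2 h. After that the dishes received DMSO, 5 µM DAPT, 20 µg/ml control IgG, 20 µg/ml antiN3.A13, beads carrying JAG1-Fc (the Notch ligand JAG1 joined to an antibody tail) or beads carrying Fc alone, with 3 arrays each. DMSO and DAPT were given once more to their own dishes at 22 h, and the arrays are labelled as harvested at 24 h. Whether the arrays within a group represent separate cultures is not in the labels, so p-values measure the spread between these arrays, which may be technical.

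RefSeq promoter windows (GRCh38.p14, from 250 bases before to 50 after the start of transcription) were found for 31 of the 37 members; PSPH, SHMT2, ALDH1L2, SLC7A11, NUPR1 and EIF4EBP1 had no entry. The letters TGATGCAA, a core of the composite element to which C/EBP and ATF factors bind, stood on either strand in 5 of the 31 (16.1%), against 0.936% of the 15384 tested genes that have a window. The looser form TGATGNAA, which includes the first, stood in 9 (29.0%) against 3.61%, in CEBPG, CHAC1, JDP2, SLC1A4, SLC1A5, ASNS, ATF3, SLC3A2 and SLC7A1. The cyclic AMP response core TGACGTCA, also on either strand, stood in 1 (PPP1R15A, 3.23%) against 3.10%. The 6 stretches of 60 bases below are shown because they carry the looser letters upstream of the start in genes that changed in the arrays; they are given 5′ to 3′ on the gene's strand with the matched letters in capitals. CHAC1 carries the match on the opposite strand. The ASNS match, 68 bases before the start, lies where the textbook nutrient-sensing element of that gene is described. A match is a description of these letters and not evidence of binding.
CHAC1 (chr15:40953236-40953295, plus strand): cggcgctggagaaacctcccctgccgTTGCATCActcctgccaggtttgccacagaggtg
CEBPG (chr19:33374045-33374104, plus strand): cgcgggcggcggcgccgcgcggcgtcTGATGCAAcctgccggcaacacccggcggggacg
JDP2 (chr14:75427962-75428021, plus strand): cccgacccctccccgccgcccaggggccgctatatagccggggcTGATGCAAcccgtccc
SLC1A5 (chr19:46784878-46784937, minus strand): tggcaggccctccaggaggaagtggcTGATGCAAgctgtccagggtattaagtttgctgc
ATF3 (chr1:212565190-212565249, plus strand): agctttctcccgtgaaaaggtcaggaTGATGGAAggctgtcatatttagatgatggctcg
ASNS (chr7:97872443-97872502, minus strand): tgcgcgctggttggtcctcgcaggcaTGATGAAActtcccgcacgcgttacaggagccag

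The 8 antagonism arrays had log2 medians of 7.60 to 7.65 and the 18 agonism arrays of 6.83 to 6.88, so levels are compared within an experiment only. Basal and epithelial markers were bright, with EGFR, KRT18 and EPCAM at or above the 98.6 percentile of all genes on every array and KRT5 at or above the 94.1. KRT14 lay between the 54.4 and 79.3 percentiles. The hormone receptor gene PGR stayed at or below the 20.6 percentile, ESR1 at or below the 57.2, the leukocyte gene PTPRC at or below the 13.3 and the endothelial gene CDH5 at or below the 33.7. CD3E, PECAM1, DCN and COL1A1 (at most the 53.8, 65.2, 54.3 and 78.8 percentiles) were not at the bottom of the range, and the table gives no detection calls. Members themselves covered a wide range of brightness: ATF4 averaged 13.44 (99.0 percentile), PSPH 13.81 (99.5) and CEBPB 13.49 (99.1), while ATF5 averaged 8.40 (55.7) and ADM2 8.33 (54.8). Brightness depends on the probes, so levels of different members are not set against each other.

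The median of the members followed a stepped order over the 6 groups of the agonism experiment. Single members did not all follow it. ALDH1L2 averaged 9.25 with A13 and 8.93 with Fc beads, and NUPR1 averaged 11.19 with A13 and 11.23 with DMSO. A13 and Fc beads were not compared in a test. Measured from the DMSO mean, the median member stood at 0.00 with continued DAPT, at 0.58 with IgG after washout, at 0.80 with A13, at 0.96 with Fc beads and at 1.002 with JAG1-Fc beads, all on the log2 scale. Over all genes the corresponding medians were 0.02, 0.06, 0.03, 0.03 and 0.04. JAG1-Fc beads gave the highest group mean for 31 of the 37 members (24.1% of all genes), and the lowest mean was in DMSO for 17 (31.5% of all genes) or DAPT for 17 (17.9%). The DMSO and DAPT dishes, which hold the low values, are also the dishes that received their agent again at 22 h, and the groups with high values are those without it; that handling and the treatments cannot be told apart. Since these are bulk RNA samples, fewer cells using a gene and less RNA per cell cannot be told apart either.

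**Figure D1:**
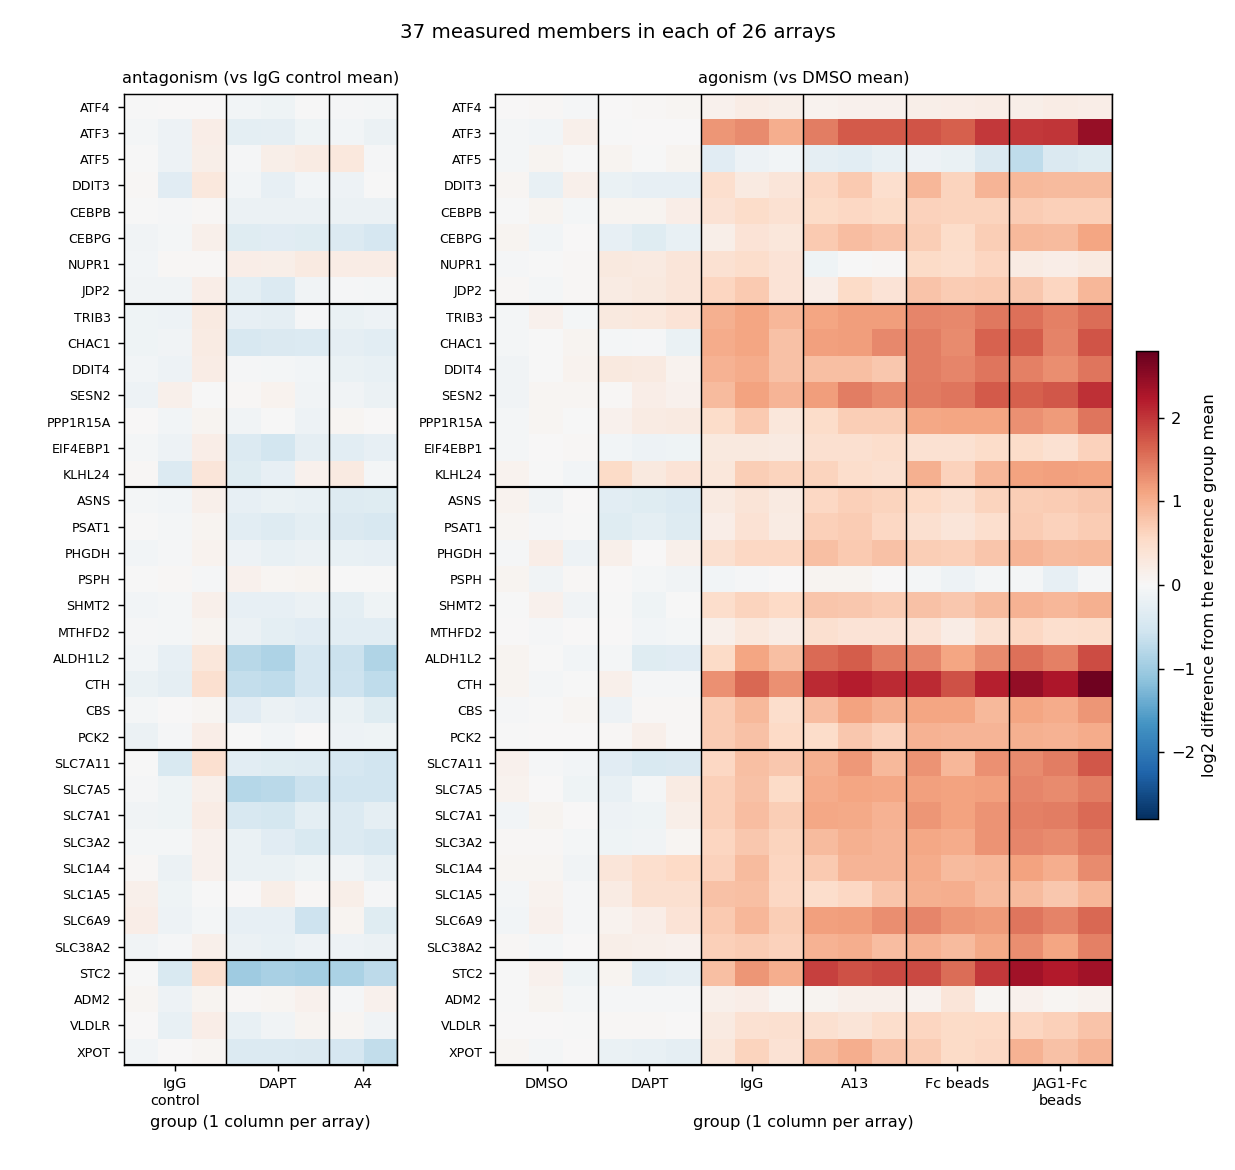
Heat map of the 37 measured members (rows, grouped by role) in each of the 26 arrays (columns); colour is the log2 difference from the mean of the control IgG arrays (antagonism) or of the DMSO arrays (agonism). Most rows are pale in DMSO and DAPT and red in the other 4 agonism groups, deepest for CTH, STC2 and ATF3; PSPH, ADM2 and ATF4 stay pale and ATF5 turns light blue.

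With control IgG after DAPT washout, nearly the whole module stood above the DMSO dishes. Of 37 members 34 were called higher (adjusted p under 0.05 in limma over all genes) and 0 lower, where 17.9% of all genes were called higher and 12.6% lower. The median change was 0.58 for the members and 0.06 for all genes. Members were chosen with earlier results of these data known, so their counts are not an independent test against all genes. The 2 groups differ in the DAPT given before the washout, in the IgG and in the DMSO. The direct Notch targets HES1 and NRARP were higher by 0.29 ± 0.06 (SE) and 0.22 ± 0.07. Other genes read beside them averaged, with DMSO and with IgG, 11.170 and 11.772 (NOTCH3), 10.635 and 10.877 (MYC), 7.790 and 7.865 (HEY1), and 7.413 and 7.341 (OLFM4). The part of Notch signalling in the member values was not tested.

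CTH, the enzyme that releases cysteine from cystathionine, moved most. It read 8.15, 8.02 and 8.06 in the DMSO arrays and 9.36, 9.68 and 9.35 with IgG. The groups were well apart, and the change was 1.39 ± 0.12 (2.62-fold, adjusted p = 8.79e-07 in limma). ATF3, a stress-induced repressor and activator of the ATF family, read 8.62, 8.59 and 8.82 with DMSO against 9.90, 10.00 and 9.68. Its change was 1.19 ± 0.12 (adjusted p = 3.73e-06), but its size depends on the probe set: another (mean 8.92) gave 0.66 ± 0.12 and a dim one (mean 7.05) gave 0.21 ± 0.08. STC2, a secreted glycoprotein, read 8.63, 8.75 and 8.52 with DMSO against 9.48, 9.87 and 9.64. Again no IgG array fell to the DMSO range, and the change was 1.03 ± 0.12 (adjusted p = 9.54e-06).

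Among the feedback and stress regulators all 7 were called higher, with a median change of 0.94. TRIB3, a pseudokinase that restrains ATF4, read 12.14, 12.32 and 12.14 with DMSO and 13.20, 13.31 and 13.12 with IgG, a change of 1.01 ± 0.07 (adjusted p = 7.13e-08 in limma). CHAC1, which breaks down glutathione, read 8.57, 8.62 and 8.70 against 9.67, 9.73 and 9.44, a change of 0.99 ± 0.10 (adjusted p = 6.21e-06). SESN2, a leucine sensor that restrains mTORC1, read 8.99, 9.13 and 9.14 against 9.98, 10.21 and 10.04, a change of 0.98 ± 0.10 (adjusted p = 5.80e-06). In these 3 genes the lowest IgG array lay above the highest DMSO array, as it did in 34 members in all. The share of all genes without overlap was not counted for any agonism comparison. DDIT4, another brake on mTORC1, rose by 0.94 ± 0.07, KLHL24 by 0.55 ± 0.10, PPP1R15A, the phosphatase subunit that restores eIF2, by 0.52 ± 0.09, and the translation repressor EIF4EBP1 by 0.27 ± 0.06.

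All 8 amino acid transporters rose by a similar amount, between 0.66 and 0.79 with a median of 0.72. They were the glycine transporter SLC6A9 (0.79 ± 0.09), the glutamine transporter SLC1A5 (0.75 ± 0.09), the arginine and lysine transporter SLC7A1 (0.74 ± 0.08), the cystine importer SLC7A11 (0.72 ± 0.11), SLC1A4 (0.71 ± 0.09), SLC38A2 (0.67 ± 0.07), and the large neutral amino acid transporter SLC7A5 (0.67 ± 0.09) with its partner chain SLC3A2 (0.66 ± 0.07). Of the 10 enzymes 9 rose. Beside CTH these were ALDH1L2 (0.83 ± 0.13), SHMT2 (0.56 ± 0.06) and MTHFD2 (0.22 ± 0.06) of mitochondrial folate metabolism, and CBS of cysteine synthesis (0.71 ± 0.09). PHGDH (0.53 ± 0.07) and PSAT1 (0.27 ± 0.07) of serine synthesis, asparagine synthetase ASNS (0.29 ± 0.06) and PCK2 (0.69 ± 0.07) were the others. PSPH, the last enzyme of serine synthesis, did not pass at -0.03 ± 0.06. ASNS and SLC1A4 turned sign where only their dim probe sets were used, with ASNS at -0.08 ± 0.09 and SLC1A4 at -0.33 ± 0.10.

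ATF4 itself changed least among the members called. Its transcript read 13.29, 13.31 and 13.24 in DMSO and 13.39, 13.49 and 13.44 with IgG, a change of 0.16 ± 0.05 (1.12-fold, adjusted p = 0.0177 in limma). DDIT3, the CHOP factor linked to stress-induced death, read 8.96, 8.69 and 9.03 against 9.36, 9.15 and 9.24, a change of 0.36 ± 0.10 (adjusted p = 0.00783). The other factors called were JDP2 (0.58 ± 0.10), CEBPB (0.45 ± 0.05), the stress-induced nuclear protein NUPR1 (0.44 ± 0.06) and the ATF4 partner CEBPG (0.29 ± 0.08). ATF5 stood at -0.18 ± 0.09 (adjusted p = 0.149) and ADM2 at 0.13 ± 0.07 (adjusted p = 0.167), neither called. XPOT was higher by 0.45 ± 0.08 and VLDLR by 0.37 ± 0.06. Members whose windows hold TGATGNAA had a median change of 0.71 and those without it 0.54, given as a description.

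**Figure D2:**
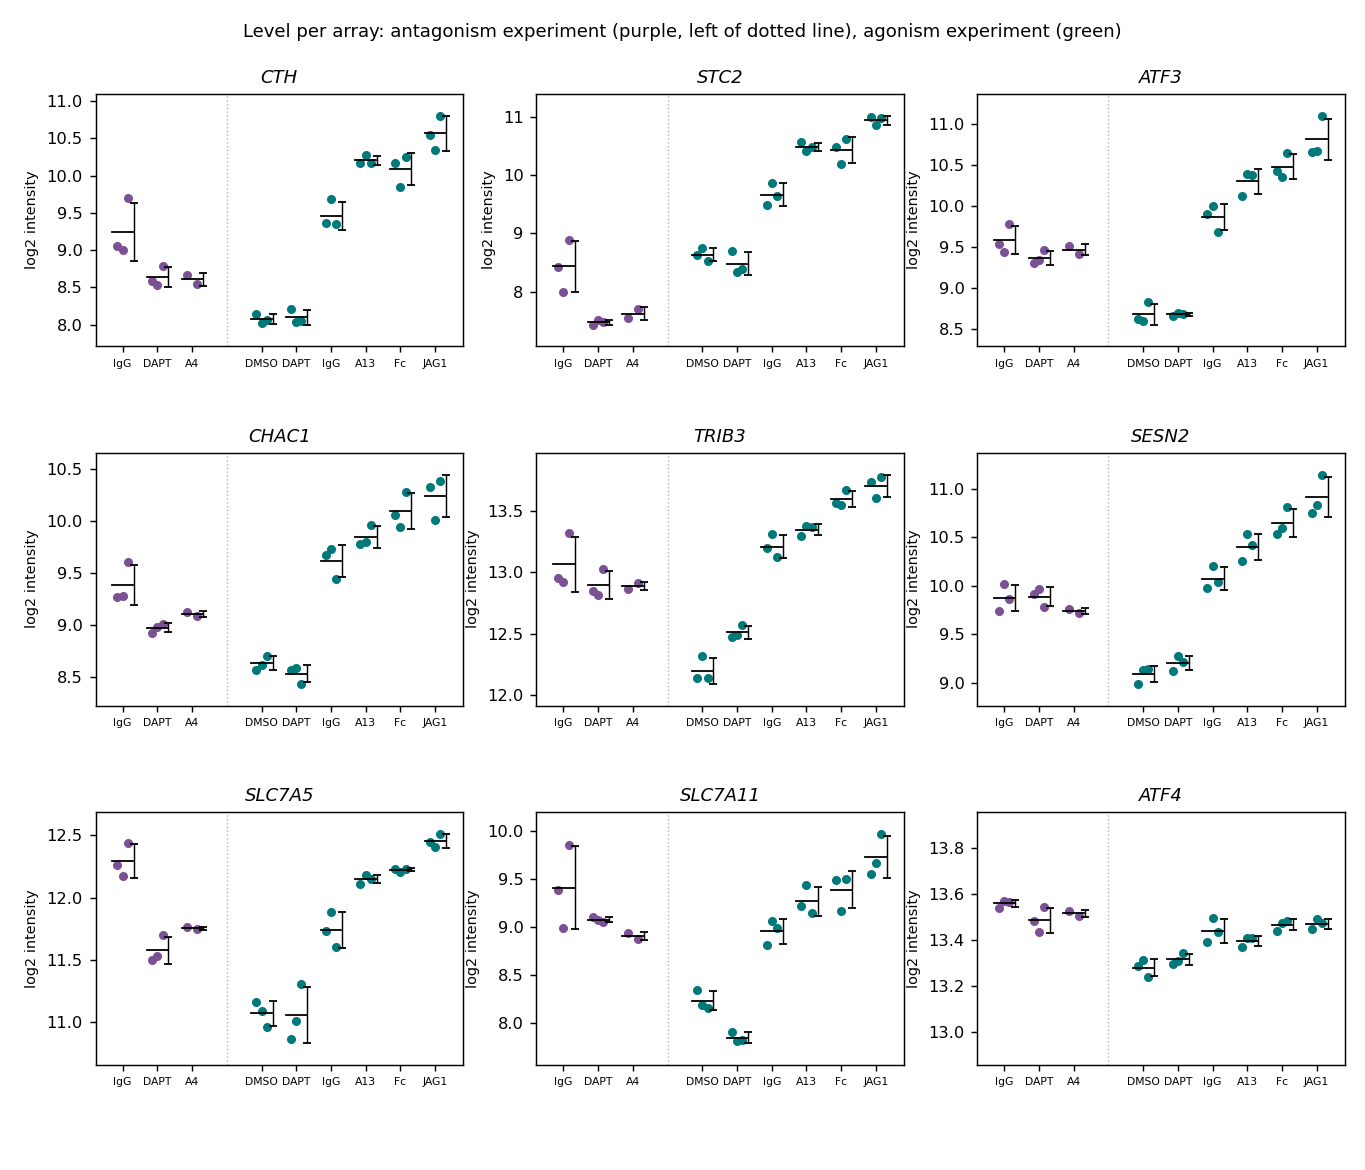
Log2 intensity in every array for 9 members in the 9 groups (purple: antagonism; green: agonism); points are arrays, the line is the group mean and the bar its SD, and each panel has its own vertical scale. In all panels but that of ATF4 the agonism values climb from DMSO and DAPT through IgG to the bead groups; ATF4 differs by 0.16 between DMSO and IgG.

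Set against dishes kept in DAPT, which share the DAPT given before washout, IgG after washout gave much the same picture. Of 37 members 29 were called higher and 0 lower (background 4.15% of all genes higher and 5.62% lower), with a median change of 0.57 against 0.03 over all genes. Both comparisons share the IgG arrays, so they are not independent. Against DAPT, HES1 was higher by 0.67 ± 0.06, NRARP by 0.41 ± 0.07 and MYC, a known Notch target and regulator of amino acid metabolism, by 1.45 ± 0.07.

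In the DAPT arrays CTH read 8.21, 8.04 and 8.04, ATF3 8.66, 8.69 and 8.68, and STC2 8.70, 8.34 and 8.38, all below the IgG arrays given above. The changes were 1.37 ± 0.12 for CTH (adjusted p = 5.00e-07 in limma), 1.19 ± 0.12 for ATF3 (2.56e-06) and 1.19 ± 0.12 for STC2 (2.24e-06). These sizes also depend on the probe set: without probe sets that match related transcripts ATF3 gave 0.62 and STC2 1.91. SLC7A11 read 7.91, 7.81 and 7.83 with DAPT and 8.82, 9.07 and 8.997 with IgG, a change of 1.11 ± 0.11 (adjusted p = 2.99e-06). CHAC1 read 8.57, 8.59 and 8.44 with DAPT and rose by 1.09 ± 0.10 (adjusted p = 1.80e-06). ALDH1L2, which oxidises formyl-folate in mitochondria, read 7.60, 7.33 and 7.35 against 8.20, 8.77 and 8.51, a change of 1.07 ± 0.13 (adjusted p = 1.82e-05), or 0.62 as the mean of its probe sets. For each of these 6 genes the IgG and DAPT arrays did not overlap. In all, the IgG arrays lay above for 34 members and below for 1, and the share of all genes was not counted. ATF4 (0.12 ± 0.05, adjusted p = 0.127) did not pass, while DDIT3 was higher by 0.57 ± 0.10 (adjusted p = 0.000662), from 8.70, 8.66 and 8.66 in DAPT. Not called beside ATF4 were ATF5, PSPH, KLHL24, NUPR1, ADM2, SLC1A4 and JDP2, between -0.23 and 0.30.

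**Figure D3:**
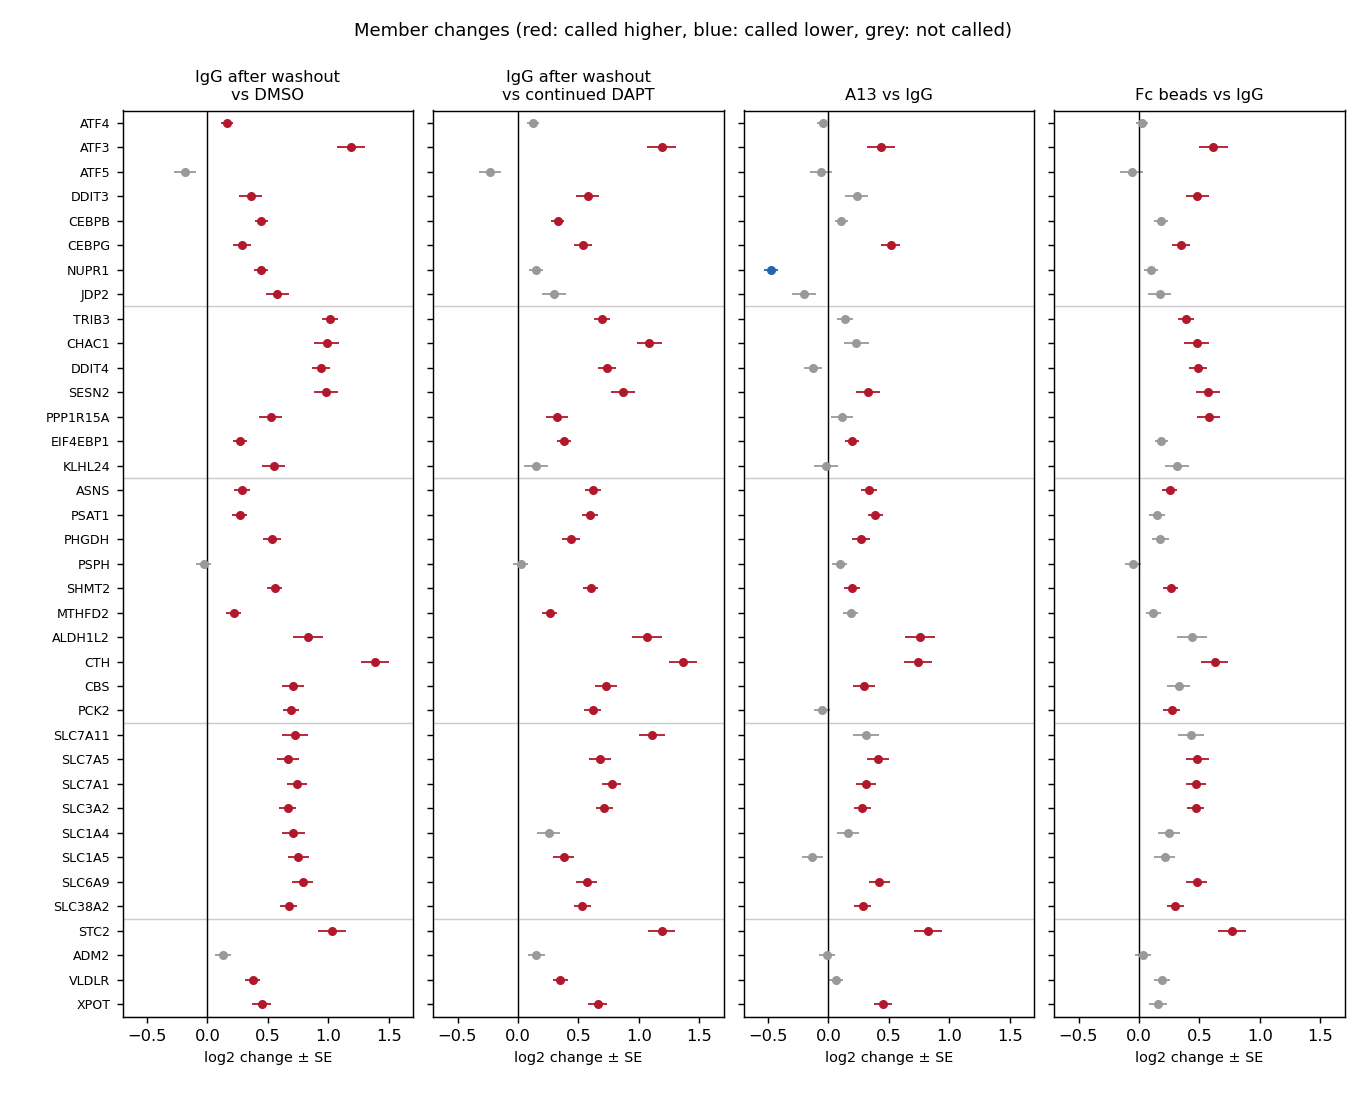
Log2 change ± SE of each of the 37 members in 4 comparisons of the agonism experiment (red: called higher; blue: called lower; grey: not called at adjusted p 0.05). Calls number 34 higher for IgG against DMSO, 29 for IgG against DAPT, 18 for A13 against IgG with NUPR1 the 1 lower, and 18 for Fc beads against IgG.

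With continued DAPT the calls among the members ran both ways, at shares near those of all genes. Against DMSO 6 members (16.2%) were called higher and 4 (10.8%) lower, where 12.4% of all genes were called higher and 8.31% lower; the member median was 0.00. The sizes were small: none passed 0.46 in either direction, although MYC fell by 1.21 and HES1 by 0.39 in the same arrays.

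Higher with DAPT were SLC1A4 (9.06, 9.07 and 8.93 in DMSO; 9.36, 9.49 and 9.58 in DAPT; 0.46 ± 0.09, adjusted p = 0.00171 in limma), KLHL24 (7.92, 7.81 and 7.74; 8.36, 8.10 and 8.20; 0.40 ± 0.10), SLC1A5 (0.37 ± 0.09), TRIB3 (0.32 ± 0.07, with 12.48, 12.49 and 12.57 in DAPT), NUPR1 (0.29 ± 0.06) and JDP2 (0.28 ± 0.10, adjusted p = 0.0483). JDP2 rests near the threshold, and its call was lost under 10 of 14 other settings. SLC1A4 also has a dim probe set (mean 6.67), which in its place gave -0.28. KLHL24 gave 0.10 (adjusted p = 0.518) as the mean of its probe sets. Lower were SLC7A11 (8.35, 8.20 and 8.16 in DMSO; values in DAPT as above; -0.38 ± 0.11, adjusted p = 0.0184), ASNS (11.97, 11.78 and 11.88; 11.59, 11.55 and 11.49; -0.34 ± 0.06, adjusted p = 0.000992), PSAT1 (12.80, 12.69 and 12.71; 12.39, 12.46 and 12.37; -0.33 ± 0.07) and CEBPG (10.52, 10.36 and 10.45; 10.22, 10.11 and 10.24; -0.25 ± 0.08). Every DAPT array lay below every DMSO array in 6 members and above in 11, and the share of all genes was not counted. These 4 were among the 6 below. The calls of 3 were lost with other probe sets: as the mean of its probe sets SLC7A11 gave -0.22 (adjusted p = 0.0810) and CEBPG -0.14 (0.199), and ASNS gave -0.17 (0.228) from its dim probe set. ATF4 (0.04 ± 0.05, with 13.30, 13.31 and 13.34 in DAPT) and DDIT3 (-0.22 ± 0.10, adjusted p = 0.119) were not called, and CTH and ATF3 stood at 0.02 and 0.00.

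The NOTCH3 antibody A13, used as an agonist, raised part of the module above control IgG. Of 37 members 18 were called higher and 1 lower, where 5.68% of all genes were called higher and 9.02% lower; the medians were 0.23 for the members and -0.03 for all genes. The 19 calls in all depend on single arrays, with 12 left without the first IgG array and 11 without the second A13 array. NRARP rose by 1.90 ± 0.07 and MYC by 1.33 ± 0.07 in the same comparison.

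Calls lay mostly among enzymes (7 of 10) and transporters (5 of 8), against 2 of 7 stress regulators and 2 factors higher with 1 lower among 8; the difference between these groups was not tested. STC2 read 10.56, 10.41 and 10.48 with A13, above all IgG arrays, a change of 0.82 ± 0.12 (adjusted p = 6.11e-05 in limma). ALDH1L2 read 9.26, 9.36 and 9.13, a change of 0.76 ± 0.13 (adjusted p = 0.000347). CTH read 10.18, 10.28 and 10.16, a change of 0.74 ± 0.12 (adjusted p = 0.000180). These 3 members thus stepped up again from a level that was already above DMSO. CEBPG read 10.61, 10.82 and 10.76 with IgG and 11.17, 11.31 and 11.24 with A13, a change of 0.51 ± 0.08 (adjusted p = 0.000114). XPOT, which carries tRNAs out of the nucleus, read 11.90, 12.20 and 11.98 against 12.46, 12.60 and 12.37, a change of 0.45 ± 0.08 (adjusted p = 0.000479). ATF3 read 10.12, 10.39 and 10.38, a change of 0.44 ± 0.12 (adjusted p = 0.0156) that was not called with the mean of its probe sets (0.24, adjusted p = 0.0821). Other calls were SLC6A9 (0.42), SLC7A5 (0.41), PSAT1 (0.39), ASNS (0.34), SESN2 (0.33), SLC7A1 (0.31), CBS (0.29, with overlapping arrays), SLC38A2 (0.28), SLC3A2 (0.28), PHGDH (0.27), SHMT2 (0.19) and EIF4EBP1 (0.19).

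NUPR1 went the other way. It read 11.66, 11.72 and 11.62 with IgG and 11.10, 11.20 and 11.27 with A13, close to the 11.20, 11.21 and 11.27 of the DMSO arrays, with a change of -0.47 ± 0.06 (adjusted p = 1.42e-05 in limma). ATF4 (13.37, 13.41 and 13.41; -0.04 ± 0.05) and DDIT3 (9.48, 9.62 and 9.36; 0.23 ± 0.10, adjusted p = 0.117) were not called. TRIB3 (0.14 ± 0.07), CHAC1 (0.23 ± 0.10), DDIT4 (-0.13 ± 0.07) and SLC1A5 (-0.14 ± 0.09) were not called either, though all 4 had risen with IgG against DMSO.

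Fc beads, which carry no Notch ligand, also stood above soluble IgG. Of 37 members 18 were called higher and 0 lower, where 1.64% of all genes were called higher and 0.44% lower. The medians were 0.30 for the members and -0.01 for all genes. HES1 (0.02 ± 0.06) and NRARP (0.08 ± 0.07) were not called, and MYC was higher by 0.44 ± 0.07. The count is sensitive to the fit: 1 member was called when these 2 groups were fitted alone, and 10 without the first Fc bead array, 11 without the third, and 11 without the first IgG array.

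The calls included 5 of 7 stress regulators and 5 of 8 transporters. STC2 read 10.48, 10.19 and 10.62 with Fc beads, a change of 0.77 ± 0.12 (adjusted p = 0.00129 in limma). CTH read 10.16, 9.85 and 10.25, a change of 0.63 ± 0.12 (adjusted p = 0.00713), and ATF3 read 10.43, 10.36 and 10.65, a change of 0.62 ± 0.12 (adjusted p = 0.00846). PPP1R15A read 9.42, 9.65 and 9.24 with IgG and 10.00, 10.02 and 10.02 with Fc beads, a change of 0.58 ± 0.09 (adjusted p = 0.00217). All bead arrays of these 4 genes lay above all IgG arrays, as they did for 26 members in all. The share of all genes was not counted. SESN2 read 10.54, 10.59 and 10.81, a change of 0.57 ± 0.10 (adjusted p = 0.00487). DDIT4 read 12.50, 12.57 and 12.35 with IgG and 12.96, 12.90 and 13.03 with the beads, a change of 0.49 ± 0.07 (adjusted p = 0.00148). DDIT3 passed here, at 9.83, 9.52 and 9.84 (0.48 ± 0.10, adjusted p = 0.0113), and ATF4 did not, at 13.44, 13.48 and 13.48 (0.03 ± 0.05).

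JAG1-Fc beads added a further step to that of Fc beads. A high Fc bead array enlarges the Fc bead step and shrinks the JAG1-Fc step, and the sizes of these steps were not compared in a test. Of 37 members 7 were called higher and 1 lower, where 2.97% of all genes were called higher and 5.14% lower; the medians were 0.18 for the members and 0.01 for all genes. Only 1 member, NUPR1, was called without the second Fc bead array and 3 without the third JAG1-Fc array; over the other fits and filters the calls numbered 4 to 15. NRARP rose by 1.01 ± 0.07 and MYC by 0.81 ± 0.07.

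Again STC2 and CTH led. STC2 read 10.99, 10.85 and 10.98 with JAG1-Fc beads, above every Fc bead array, a change of 0.51 ± 0.12 (adjusted p = 0.00850 in limma). CTH read 10.54, 10.35 and 10.81, a change of 0.48 ± 0.12 (adjusted p = 0.0136). CEBPG read 11.13, 10.97 and 11.12 with Fc beads and 11.36, 11.33 and 11.56 with JAG1-Fc, a change of 0.34 ± 0.08 (adjusted p = 0.00809). XPOT (0.31 ± 0.08), the small neutral amino acid transporter SLC38A2 (0.30 ± 0.07), PSAT1 (0.27 ± 0.07) and SLC3A2 (0.26 ± 0.07) made up the rest. NUPR1 read 11.76, 11.71 and 11.83 with Fc beads and 11.45, 11.40 and 11.48 with JAG1-Fc, a change of -0.32 ± 0.06 (adjusted p = 0.00142). It was thus the 1 member called lower with each activating agent against its own control. ATF4 (13.45, 13.49 and 13.47; 0.00 ± 0.05) and DDIT3 (9.81, 9.78 and 9.78; 0.06 ± 0.10) were not called.

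The JAG1-Fc step over Fc beads and the A13 step over IgG were then compared directly. No member was called, with 0 higher and 0 lower (background 0.116% and 0.0657% of all genes). An unadjusted p under 0.05 in limma was reached by 2 members and by 1173 of all 19775 genes. The largest differences were -0.43 ± 0.18 for ALDH1L2, -0.31 ± 0.16 for STC2 and 0.30 ± 0.14 for KLHL24. With errors of this size the A13 and JAG1-Fc steps are not shown to be alike. For NRARP the A13 step was larger (-0.89 ± 0.10), and for MYC too (-0.53 ± 0.10).

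In the antagonism experiment, where DAPT or a NOTCH3 antibody was added to cells that had no earlier DAPT, few members passed the test. With DAPT against control IgG, 0 were called higher and 1 lower (background 0.202% and 0.152% of all genes). An unadjusted p under 0.05 in limma was reached by 22 of 37 members and by 2572 of all 19775 genes. The median change was -0.21 against 0.00 over all genes. All 3 DAPT arrays lay below all 3 control arrays for 20 members and above them for 2, where 9.15% of all genes lay below and 8.73% above. HES1 fell by 0.51 and MYC by 1.34.

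SLC7A5 was the member called. It read 12.26, 12.18 and 12.44 in the control arrays and 11.50, 11.53 and 11.70 with DAPT, a change of -0.72 ± 0.09 (adjusted p = 0.0163 in limma); the call was lost under 4 of 13 other settings, among them the fits without the first control array and without the first or the second DAPT array. STC2 read 8.42, 7.996 and 8.88 against 7.43, 7.52 and 7.48 (-0.95 ± 0.18, adjusted p = 0.0781), and ALDH1L2 8.96, 8.82 and 9.35 against 8.27, 8.18 and 8.57 (-0.70 ± 0.15, adjusted p = 0.105). CTH read 9.05, 8.99 and 9.70 against 8.59, 8.53 and 8.79 (-0.61 ± 0.17, adjusted p = 0.176). These 3 were not called although their arrays did not overlap. The control arrays were spread: the third stood above its group mean in 33 of 37 members, by 0.16 on average against 0.02 over all genes, and the second in 6, with a mean deviation of -0.12. Over all genes too the second control array deviated most from its group mean (SD 0.183, against 0.088 for the first and 0.147 for the third). Without the second control array 11 members were called, all lower. Calls over all 19775 genes then rose as well, from 70 to 1198. ATF4 (13.54, 13.57 and 13.57; 13.48, 13.44 and 13.54; -0.07 ± 0.06) and DDIT3 (9.56, 9.21 and 9.82; 9.44, 9.29 and 9.45; -0.14 ± 0.14) were not called.

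The NOTCH3 antibody A4, used as an antagonist, gave values of the same direction with 0 members called higher and 0 lower (background 0.0455% and 0.0556%). An unadjusted p under 0.05 in limma was reached by 17 of 37 members and by 1836 of all 19775 genes. The median change was -0.17 against 0.00 over all genes, and both A4 arrays lay below all control arrays for 22 members and above them for 1, where 12.3% of all genes lay below and 12.6% above. XPOT came nearest to a call, at 11.95, 12.03 and 12.08 against 11.54 and 11.32 (-0.59 ± 0.09, adjusted p = 0.0529). STC2 (7.54 and 7.70; -0.81 ± 0.20), ALDH1L2 (8.44 and 8.19; -0.73 ± 0.17) and CTH (8.67 and 8.54; -0.64 ± 0.19) were also low, with adjusted p of 0.225, 0.186 and 0.318. ATF4 (13.53 and 13.51; -0.04 ± 0.07) and DDIT3 (9.38 and 9.52; -0.08 ± 0.15) were not called. HES1 fell by 0.65 and MYC by 1.15. Without the second control array 6 members were called, all lower, while calls over all 19775 genes rose from 20 to 96. Between A4 and DAPT 0 members were called higher and 0 lower (0% and 0% of all genes), with differences between -0.20 and 0.24. Only 1 member had an unadjusted p under 0.05 in limma, against 1628 of all 19775 genes. DAPT and A4 were both compared with the same control arrays, so a high or low control array moves both.

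Part of the module differed between the 2 experiments in its change with DAPT. The difference between the changes, antagonism minus agonism, was called for 0 members upwards and 7 downwards (background 2.85% and 3.27% of all genes), with a median of -0.25 against -0.03 over all genes. For 5 of the 7 DAPT was below control in the antagonism experiment and above DMSO in the agonism experiment: TRIB3 (-0.17 and 0.32), SLC1A4 (-0.16 and 0.46), SLC6A9 (-0.35 and 0.22), CEBPB (-0.17 and 0.12) and JDP2 (-0.26 and 0.28). SLC7A5 (-0.72 and -0.01) was below control in the antagonism experiment and level with DMSO in the agonism experiment. The mean of STC2 (-0.95 and -0.16) was below in both. Of these 14 changes only those of SLC7A5 in the antagonism experiment and of TRIB3, SLC1A4 and JDP2 in the agonism experiment passed on their own. The experiments also differ in plating density, in the control (IgG with DMSO or DMSO alone) and in the washout. Only the antagonism dishes had the 40 h of growth in their labels, and their DAPT came with IgG. Only the agonism DAPT dishes had 16 h of DAPT beforehand and DAPT again at 22 h. These differences cannot be told apart. By contrast HES1 and MYC fell in both, with differences of -0.12 ± 0.09 and -0.13 ± 0.12 that were not called. The count is unstable, at 0 when the 4 groups were fitted without the others, and at 2 without the first antagonism DAPT array, the first or the third DMSO array or the third agonism DAPT array.

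**Figure D4:**
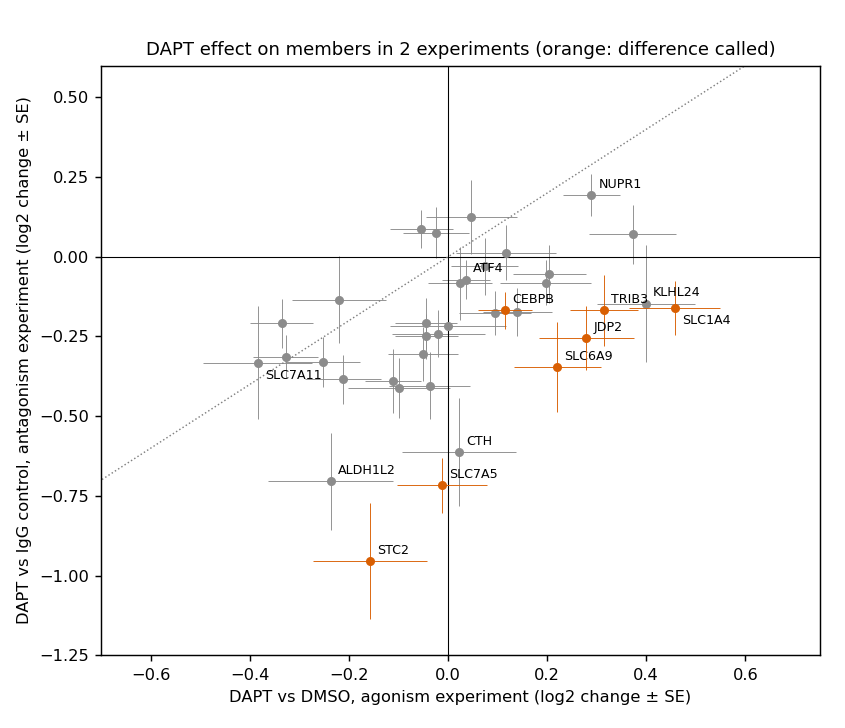
Change of each member with DAPT in the agonism experiment (horizontal, against DMSO) and in the antagonism experiment (vertical, against control IgG), both log2 ± SE; orange marks the 7 members whose difference was called and the dotted line marks equal change. Most points lie below the line, and SLC7A5 and STC2 lie far below it.

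Other genes around the pathway were read from lists, whose counts are set beside the shares of all genes called. The lists too were chosen with earlier results of these data known. The first list held cytosolic aminoacyl-tRNA synthetases, enzymes that charge tRNAs and include known ATF4 targets. Not all listed were measured, and the counts are over the 17 that were. With IgG after washout 13 (76.5%) were higher and 1 (5.88%) lower than in DMSO (all genes 17.9% and 12.6%), with a median change of 0.28 against 0.58 for the members. AARS1 rose by 0.77 ± 0.07, GARS1 by 0.62 ± 0.06, YARS1 by 0.51 ± 0.07 and EPRS1 by 0.42 ± 0.06, and FARSB fell by 0.20. Against continued DAPT 12 (70.6%) were higher and 0 lower (all genes 4.15% and 5.62%). A13 raised 8 (47.1%, all genes 5.68%) over IgG, led by LARS1 (0.43 ± 0.07) and VARS1 (0.40 ± 0.07). JAG1-Fc raised 6 (35.3%, all genes 2.97%) over Fc beads and Fc beads raised 4 (23.5%, all genes 1.64%) over IgG, with 0 lower in each. DAPT against DMSO gave 1 higher (5.88%, all genes 12.4%) and 3 lower (17.6%, all genes 8.31%), with a median of -0.04.

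The upstream machinery moved less. Of 13 eIF2 kinases, eIF2B subunits and related factors, 3 were higher with IgG than with DMSO, namely EIF2AK3 (0.35 ± 0.06), EIF2AK1 (0.24 ± 0.06) and GCN1 (0.36 ± 0.09), and 2 lower, EIF2S1 (-0.44 ± 0.07) and EIF2B3 (-0.30 ± 0.06); the list's median was 0.08. These shares, 23.1% and 15.4%, lie near the 17.9% and 12.6% of all genes. DAPT against DMSO gave 3 higher (23.1%, all genes 12.4%) and 1 lower (7.69%, all genes 8.31%), with a median of 0.03. IgG against DAPT gave 1 lower (7.69%, all genes 5.62%) and 0 higher (all genes 4.15%). With A13 1 was lower (7.69%, all genes 9.02%) and 0 higher (all genes 5.68%). With either bead 0 were called. Of all genes 1.64% were called higher and 0.44% lower for Fc beads, and 2.97% and 5.14% for JAG1-Fc. At an unadjusted p under 0.05 in limma 1 of the 13 passed for Fc beads and 0 for JAG1-Fc. Of all 19775 genes 2893 and 4146 did. These are transcripts, and kinase activity was not measured.

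Chaperones of the endoplasmic reticulum and related genes, among them the factor XBP1, mark the other arms of the unfolded protein response. They did not follow the members. Of 16, IgG raised 5 (31.2%) and lowered 2 (12.5%) against DMSO (all genes 17.9% and 12.6%), with XBP1 (0.57 ± 0.08) and HYOU1 (0.55 ± 0.08) highest and a median of 0.11. Against DAPT, IgG raised 1 (6.25%, all genes 4.15%) and lowered 2 (12.5%, all genes 5.62%), with a median of -0.04. With DAPT itself 5 were higher and 0 lower than with DMSO (31.2%, all genes 12.4%; median 0.15). A13 lowered 6 (37.5%, all genes 9.02%) and raised 0 against IgG, among them CRELD2 (-0.38 ± 0.06) and DNAJB9 (-0.31 ± 0.07), while 18 members rose in that comparison. JAG1-Fc lowered 2 (12.5%, all genes 5.14%) and raised 0, and Fc beads raised 1 (6.25%, all genes 1.64%) and lowered 0.

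Targets of NRF2, the oxidative stress factor that shares SLC7A11 with ATF4, divided the groups in another way (9 measured genes, not all listed). Against DMSO 0 were called with IgG (median 0.05), where 17.9% of all genes were called higher and 12.6% lower. At an unadjusted p under 0.05 in limma 4 of the 9 passed, as did 7860 of all 19775 genes. IgG against DAPT gave 4 lower (44.4%, all genes 5.62%) and 0 higher. DAPT against DMSO raised 6 (66.7%, all genes 12.4%) and lowered 0, with a median of 0.18. A13 lowered 4 (44.4%, all genes 9.02%) and raised 0, including NQO1 (-0.43 ± 0.05) and HMOX1 (-0.33 ± 0.07). Fc beads raised 7 (77.8%, all genes 1.64%) and lowered 0, with HMOX1, the heme-degrading enzyme, at 1.27 ± 0.07, TXNRD1 at 0.56 ± 0.06, GCLC at 0.47 ± 0.07 and ME1 at 0.39 ± 0.05. JAG1-Fc beads raised 4 (44.4%, all genes 2.97%) over Fc beads, HMOX1 by 0.47 ± 0.07, and the JAG1-Fc step exceeded the A13 step for HMOX1 by 0.80 ± 0.10. So the member rise on beads came with a rise of NRF2 targets and the member rise with A13 came with a fall of some; the part of either in the member values was not tested.

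**Figure D5:**
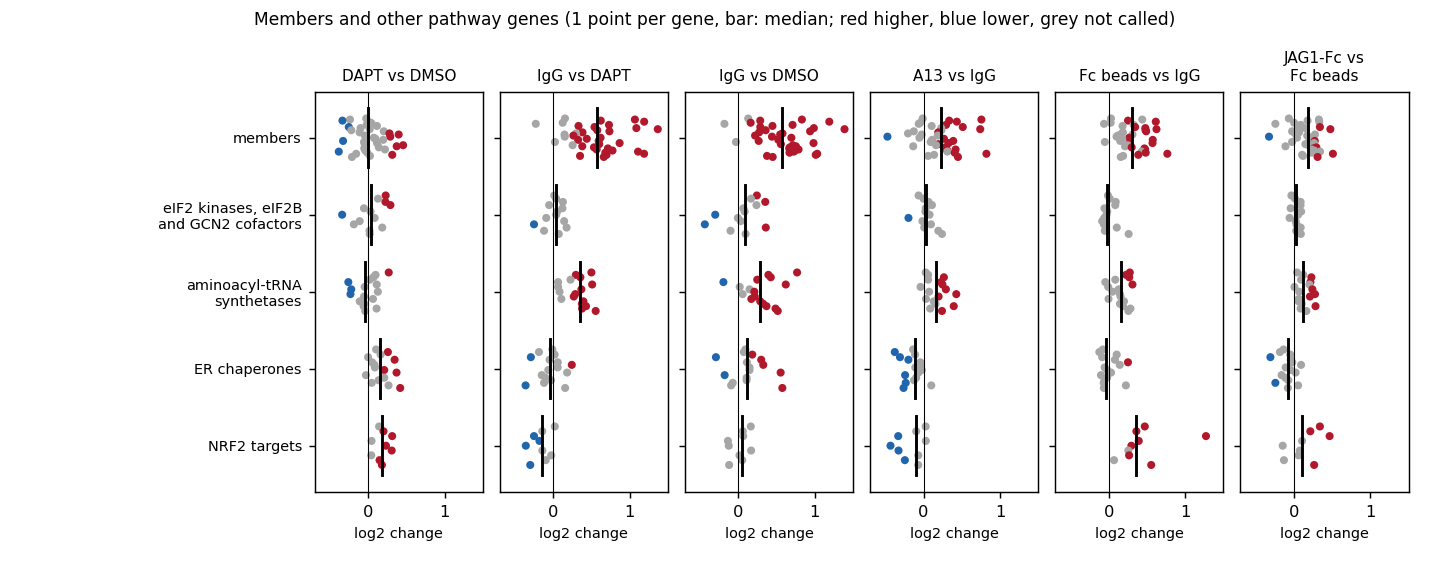
Log2 change of the 37 members and of 4 further lists (rows) in 6 comparisons of the agonism experiment (panels); each point is a gene, the bar is the list's median, red and blue are calls and grey is not called. Members and aminoacyl-tRNA synthetases sit to the right of 0 in the IgG, A13 and bead panels, with member medians from 0.18 to 0.58, while NRF2 targets sit to the right in the Fc bead panel (median 0.36) and to the left for A13 (median -0.10).

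Members also moved together between arrays of the same group. The second IgG array of the agonism experiment stood above its group mean in 35 of 37 members, by 0.11 on average where all genes averaged 0.01 (rounded from 0.005). Among the JAG1-Fc arrays the third stood above in 31 members, by 0.10 on average, and the second in 4, at -0.08. In the 3 DMSO arrays the counts were 18, 19 and 17, and in the DAPT arrays 19, 14 and 20. The spread between replicates of a member is therefore shared by much of the module in some groups, and tests of single members do not count as separate evidence.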

How the data were processed

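Total RNA of 26 MDA-MB-468 samples was hybridised to 26 Affymetrix arrays as biotin-labelled cRNA, per the labels' protocols. The deposited table holds linear intensity values (7.12 to 32597) for 54675 probe sets; per the submitters' processing notes RMA and R 2.10 were used, with no roles given. RMA makes arrays alike and can hide a shift of most genes. The plan had assumed log2 values, so log2 of the deposited intensity values was taken and the test stayed as planned. Probe sets with 1 gene symbol (41091) were used, 1801 with several and 11777 without a name (62 controls included) were left out, and the brightest stood for each of 19775 genes. All groups of an experiment were fitted together with limma 3.58.1 (lmFit, contrasts.fit, eBayes) in R 4.3.3, with Benjamini-Hochberg adjustment over all genes and calls at adjusted p under 0.05; the difference between experiments used all 26 arrays. Python 3.11.15 and matplotlib 3.10.9 served for tables and figures. Tested on simulated data over 19775 genes, the fit recovered 80% of log2 changes of 0.5 in the antagonism design and 90% in the agonism design. It recovered 100% of changes of 1 in both, with 16 and 7 false calls. The simulated noise was drawn separately for each gene and array, whereas members moved together within some groups. These shares therefore need not hold for the members. The number of arrays limits the precision.

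Every member could be named. Full values were planned for the called members with the largest change in each comparison, up to 6 higher and 6 lower. They were also planned for ATF4 and DDIT3. Some of these are given without their arrays or their adjusted p. Up to 4 called genes with the smallest adjusted p were named from a pathway list. Arrays of further members were added after their values were seen. Members and lists were chosen with earlier results of these data known. Alternatives were 8 processing settings and leaving out each array. Promoter letters came from RefSeq (GRCh38.p14), matched by symbol.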

Additional observations from a re-analysis of the deposited data

Results flagged for a closer look

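These 7 members were singled out because the effect of DAPT differed between the antagonism and the agonism experiment by a test of the difference itself in limma. The differences, antagonism minus agonism on the log2 scale, were -0.71 ± 0.13 (SE) for SLC7A5 (adjusted p = 0.00450), -0.62 ± 0.13 for SLC1A4 (0.00969), -0.28 ± 0.07 for CEBPB (0.0227), -0.48 ± 0.12 for TRIB3 (0.0251), -0.80 ± 0.21 for STC2 (0.0306), -0.53 ± 0.14 for JDP2 (0.0319) and -0.56 ± 0.16 for SLC6A9 (0.0405). Of these, SLC7A5 and SLC1A4 were called under 18 of 19 and 18 of 20 other settings, TRIB3 under 13 of 20, JDP2 under 12 of 20, STC2 under 9 of 20 and SLC6A9 under 7 of 19. CEBPB, with the smallest difference of the 7, was not followed under the other settings. With a second probe set STC2 gave -0.24 and SLC1A4 turned sign, to 0.24. As the mean of its probe sets JDP2 gave -0.24. Groups had 2 or 3 arrays, too few to look for single outlying arrays.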

How the results depend on the processing

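Over 8 other processing settings the members called were 21 to 33 for IgG against DAPT (29) and 24 to 35 for IgG against DMSO (34), and 26 to 30 and 32 to 34 when single arrays were left out. For IgG against DMSO 1 of those calls was lower after repeated quantile normalization, and 1 without _x_at and _s_at probe sets, where 2 of the 34 (ASNS and SLC1A4) had the other sign. The comparisons of A4 with DAPT and of the JAG1-Fc step with the A13 step stayed at 0 throughout. For the other counts the settings that moved them by more than 1.5 times follow. DAPT in the antagonism experiment (1 called) gave 5 after repeated quantile normalization, 2 with the mean of a gene's probe sets, 4 over genes above the median level, 7 with a trended and robust eBayes, 0 in a fit of the compared groups alone, 0 without _x_at and _s_at probe sets, and 0 to 11 with single arrays left out. A4 against control (0 called) gave 1, 3 and 4 with quantile normalization, brighter genes and the trended fit, 1 with 16 added before log2, and 0 to 6 with single arrays left out. Without _x_at and _s_at probe sets 27 members could be tested, and the calls were 6 for DAPT against DMSO (10), 9 for A13 (19), 9 for Fc beads (18), 5 for JAG1-Fc (8) and 3 for the difference in DAPT effect (7); SLC1A4 then reversed, to -0.28 for DAPT against DMSO and 0.24 for the difference. Fits of the compared groups alone gave 1 for Fc beads, 4 for JAG1-Fc and 0 for the difference. Brighter genes gave 15 and 11, and the trended fit 14 and 11, for JAG1-Fc and the difference. With single arrays left out the counts were 7 to 13 for DAPT against DMSO, 11 to 19 for A13, 10 to 19 for Fc beads, 1 to 8 for JAG1-Fc and 2 to 12 for the difference. Of 49 named member results 24 kept their call under every setting, 24 lost it under some, and the 2 SLC1A4 results reversed, of which the difference in DAPT effect is also among the 24; the cause was not tested. No replicate numbers are given in the labels, so no paired analysis was possible because arrays cannot be matched across groups. Signal over background is unknown without detection calls, so changes of dim probe sets are the least certain.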
